A study of Mus musculus with 4 samples.

Results

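Transcripts of 10 adhesion G protein-coupled receptor genes were compared between LSK cells that held much and LSK cells that held little c-Myc protein. The genes were Adgrg1, Adgrg2, Adgrg3, Adgrg5, Adgrg6, Adgre1, Adgre5, Adgrl1, Adgrl2 and Adgrl4. Every probe set that the platform annotation assigns to a single gene among these 10 was taken. This gave 16 probe sets for 9 genes, out of 45037 probe sets and 18193 genes in all, and no probe set carried the name of Adgrg5. The genes were chosen from this family with their Hi against Lo difference in log2 intensity in view. Their differences are therefore given as a description without a test.

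LSK cells are the bone marrow cells that lack lineage markers and carry c-Kit and Sca1, a mixture of haematopoietic stem cells and multipotent progenitors. Marrow came from femurs of mice labelled WT B6/129, and the sort used the amount of c-Myc-eGFP protein to separate Hi from Lo cells, with 2 arrays for each group. All 4 samples share this strain and carry the c-Myc-eGFP protein despite the label WT, and the labels name no treatment, age or number of animals. The labels do not say whether the 2 arrays of a group came from separate animals, so their spread may be technical. RNA was amplified from 5 ng before hybridisation to Affymetrix mouse expression arrays.

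Adhesion receptors have a long extracellular part joined to a membrane-spanning part that signals through G proteins. Most cut themselves at a site beside the membrane, and the stretch freed by that cut can act as a built-in agonist. Several bind matrix proteins or proteins on neighbouring cells, and the family is used in blood research for its surface markers: Adgre1 encodes the macrophage antigen F4/80, Adgre5 encodes CD97, and Adgrg1 encodes GPR56, which is found on blood stem and progenitor cells.

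The promoters of 5 starts are printed because they belong to the receptor with the largest fitted difference (Adgrg2), to adjacent genes that differed in opposite directions (Adgrg1 and Adgrg3) and to the receptor Adgrl4, which was bright on all arrays. They are RefSeq sequences of GRCm38.p6 and run from 250 bases before to 50 bases after a start. Capitals mark the ETS core AGGAAG or its reverse complement; no promoter printed here held a match to the other motifs searched, on either strand.
Adgrg2, chrX:160390440-160390739, plus strand: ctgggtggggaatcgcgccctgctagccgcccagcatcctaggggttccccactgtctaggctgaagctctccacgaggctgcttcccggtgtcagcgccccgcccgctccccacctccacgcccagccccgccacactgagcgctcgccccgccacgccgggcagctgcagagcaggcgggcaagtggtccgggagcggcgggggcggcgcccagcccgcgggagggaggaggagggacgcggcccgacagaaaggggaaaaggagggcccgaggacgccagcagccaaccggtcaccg
Adgrg1 upstream start, chr8:94976859-94977158, plus strand: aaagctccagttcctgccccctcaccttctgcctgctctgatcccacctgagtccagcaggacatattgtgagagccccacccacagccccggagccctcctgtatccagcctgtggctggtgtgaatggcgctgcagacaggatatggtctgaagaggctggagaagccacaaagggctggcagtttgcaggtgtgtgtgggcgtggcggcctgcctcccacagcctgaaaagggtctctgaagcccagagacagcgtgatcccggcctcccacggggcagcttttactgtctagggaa
Adgrg1 downstream start, chr8:94984149-94984448, plus strand: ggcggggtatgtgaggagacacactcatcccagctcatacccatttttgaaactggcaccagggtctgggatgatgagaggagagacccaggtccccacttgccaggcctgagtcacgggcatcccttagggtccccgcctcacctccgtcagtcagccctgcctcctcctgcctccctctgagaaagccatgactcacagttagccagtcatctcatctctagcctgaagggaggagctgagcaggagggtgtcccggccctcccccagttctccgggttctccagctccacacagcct
Adgrg3, chr8:95017442-95017741, plus strand: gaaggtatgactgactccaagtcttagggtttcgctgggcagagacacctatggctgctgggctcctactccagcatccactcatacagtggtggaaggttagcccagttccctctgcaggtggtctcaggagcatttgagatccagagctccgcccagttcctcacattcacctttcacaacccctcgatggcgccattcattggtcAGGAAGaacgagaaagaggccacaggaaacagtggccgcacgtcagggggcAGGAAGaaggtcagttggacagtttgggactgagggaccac
Adgrl4, chr3:151437632-151437931, plus strand: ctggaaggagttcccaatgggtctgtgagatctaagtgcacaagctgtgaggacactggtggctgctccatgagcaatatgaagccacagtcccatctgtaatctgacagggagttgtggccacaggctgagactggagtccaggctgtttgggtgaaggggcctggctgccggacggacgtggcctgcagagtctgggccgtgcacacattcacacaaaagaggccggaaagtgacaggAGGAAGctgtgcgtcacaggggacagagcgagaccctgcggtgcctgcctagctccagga

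RefSeq promoters were matched for 8 of the 10 genes, with 9 starts, and none for Adgre1 and Adgre5. The motif CACGTG, bound by Myc with its partner Max, was in 0 of these 9 windows and in 7.15% of the 32851 promoters of the table. The ETS core AGGAAG was in 5 of 9, against 35.4% of all promoters, and the GATA core GATAA in 1 of 9, against 25.4%. The RUNX core TGTGGT was in 2 of 9, against 16.8%, and in Adgrl2 it directly adjoined, without overlap, the GATA match. All motifs were searched on both strands. The promoter of Adgrg2 had a GC content of 74.0% with 30 CpG pairs and that of Adgrg6 69.0% with 38, while the Adgrl2 window had 38.0% with 4. The median of all promoters was 52.7% with 7.

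On the log2 scale 11 of the 16 receptor probe sets were lower and 5 higher in Hi, where 44.7% of all probe sets were lower and 55.3% higher. With 1 probe set per gene, the one with the highest mean, 6 of 9 receptors were lower and 3 higher, where 46.4% of all genes were lower and 53.6% higher. In 9 probe sets both Hi arrays lay below both Lo arrays, in 2 both lay above, and in 5 the groups overlapped. Over all 45037 probe sets 22.0% lay below and 29.3% above in this way. By gene, 5 of 9 receptors were below, 1 was above and 3 overlapped, where 25.4% of all genes were below and 30.0% above. The median difference was -0.32 over the 9 receptors and 0.03 over all genes. In sorted bulk samples such as these, fewer cells with a transcript and less of it per cell cannot be told apart.

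**Figure D1:**
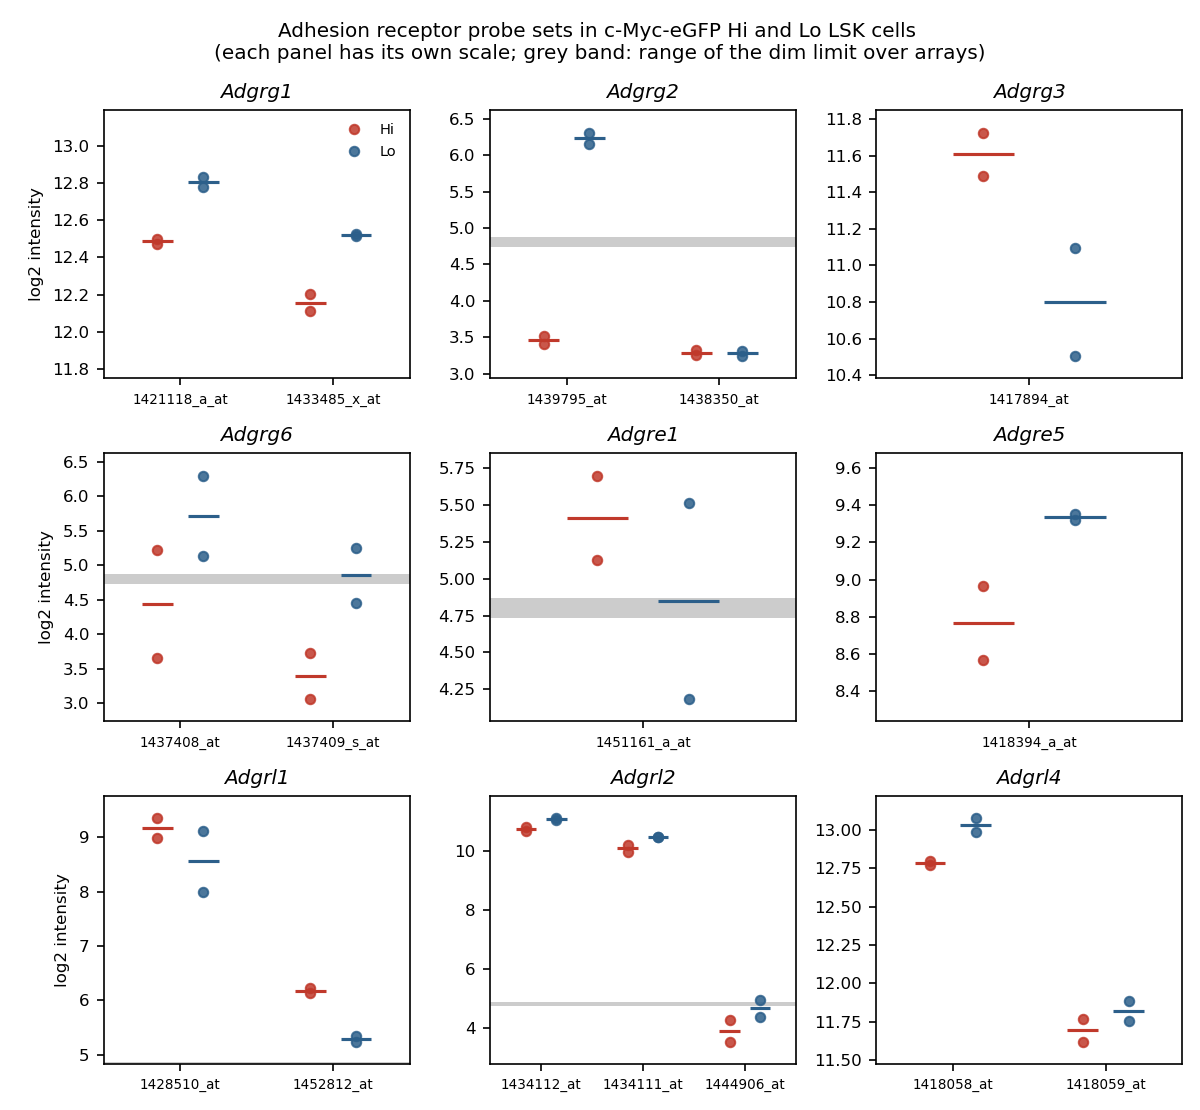
Log2 intensity of the 16 receptor probe sets on the 2 Hi arrays (red) and 2 Lo arrays (blue), with points for arrays and bars for group means; each panel has its own scale, and the grey band is the range of the dim limit. For Adgrg1 both probe sets lie lower in Hi, while Adgrg3 lies higher in Hi.

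A dim limit was set on each array as the highest log2 intensity among 27 bacterial control probe sets that appeared blank, which lay at 4.74 to 4.87. Of the receptor probe sets, 10 were above it on all 4 arrays and 1 was at or under it on all 4. Of the 9 receptors, 6 were above it on all arrays with their brightest probe set. Differences of the remaining receptors, Adgrg2, Adgrg6 and Adgre1, rest in part on signals near blank.

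Adgrg1 was bright and lower in Hi in both of its probe sets. Probe set 1421118_a_at read 12.47 and 12.50 in Hi and 12.83 and 12.78 in Lo. Probe set 1433485_x_at, of a type that may bind related transcripts, read 12.11 and 12.20 in Hi and 12.52 and 12.53 in Lo. In neither did the groups overlap. The difference was -0.32 ± 0.13 (SE) in the former, a level 1.25-fold higher in Lo, and -0.36 ± 0.13 in the latter, 1.29-fold higher in Lo. Leaving out single arrays, that of the former ran from -0.35 to -0.29. After the arrays were shifted to equal medians it was -0.22, and after cyclic loess -0.38.

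Adgrg3, known as GPR97 and expressed by granulocytes, lies next to Adgrg1 on chromosome 8 on the same strand, and it differed in the other direction. Its probe set 1417894_at read 11.49 and 11.73 in Hi and 10.51 and 11.09 in Lo. Both Hi arrays were above both Lo arrays, though the Lo arrays stood far apart from each other. The difference was 0.81 ± 0.26 (SE), 1.75-fold higher in Hi, and it was 0.51 without Lo replicate 1. Of the 8 measured neutrophil markers, Elane was higher in Hi without overlap, at 2.23 ± 0.21, Mmp9 was lower without overlap, at -2.41 ± 0.28, and the median difference was -0.02. Their summed intensity overlapped between the groups, at 26725 to 35445 in Hi and 21802 to 33590 in Lo, and all 8 were above the dim limit on at least 1 array. That of the 6 eosinophil markers was 4894 to 5472 in Hi and 1618 to 3055 in Lo, with Ccr3 and Il5ra dim on all 4 arrays. The part of such cells in the Adgrg3 difference was not tested.

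Adgrg2, known as GPR64 and best studied in the male reproductive tract, had the largest fitted difference of the 9 receptors. Probe set 1439795_at read 3.51 and 3.41 in Hi, at or under the dim limit, and 6.31 and 6.15 in Lo. The Lo arrays were thus well apart from the Hi arrays, and the transcript was at least 2.57-fold higher in Lo, the bound that the dim limit allows. Its fitted difference was -2.77 ± 0.14 (SE). The other probe set, 1438350_at, read 3.26 and 3.32 in Hi and 3.24 and 3.32 in Lo, under the limit on all arrays. The mean of both probe sets differed by -1.38, but the Adgrg2 difference, and not only its size, rests on 1439795_at. With an offset of 16 before the log2 step the difference of 1439795_at was -1.75.

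Adgrg6, known as GPR126 and needed by Schwann cells to form myelin, was dim. Probe set 1437408_at read 5.22 and 3.66 in Hi and 6.30 and 5.14 in Lo, and the groups overlapped. Probe set 1437409_s_at read 3.07 and 3.72 in Hi and 5.25 and 4.46 in Lo, with no overlap, and only 1 Lo array was above the limit. The differences were -1.28 ± 0.70 and -1.46 ± 0.39 (SE). The former was -0.50 without Hi replicate 2 and -2.06 without Hi replicate 1, and -0.69 without Lo replicate 1. No level can be given for Adgrg5, the third gene of the chromosome 8 group.

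**Figure D2:**
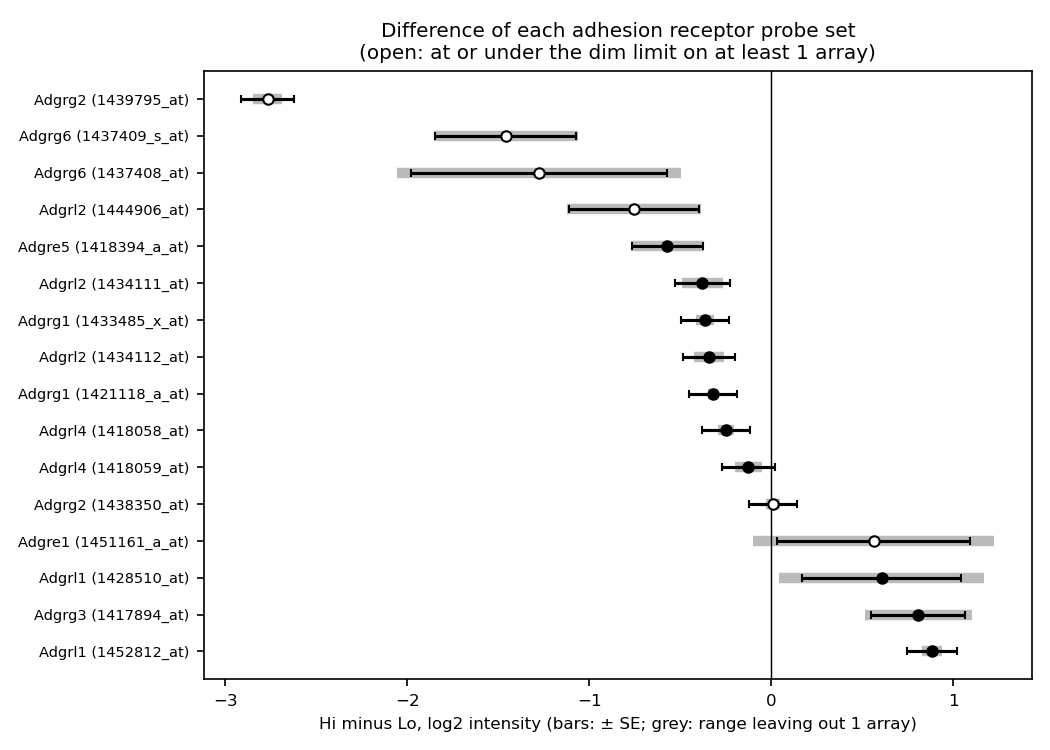
Hi minus Lo difference in log2 intensity of each of the 16 receptor probe sets with its moderated standard error, with the range over leaving out single arrays in grey; open points were at or under the dim limit on at least 1 array. Adgrg2 (1439795_at) lies farthest from 0 at -2.77, and the grey range of Adgre1 crosses 0.

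Adgre5, whose protein CD97 is carried by most white blood cells, was lower in Hi. Its probe set 1418394_a_at read 8.97 and 8.57 in Hi and 9.35 and 9.32 in Lo, without overlap. The Hi arrays differed from each other by more than the Lo arrays did. The difference was -0.57 ± 0.19 (SE), 1.48-fold higher in Lo, and it was -0.37 without Hi replicate 2.

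Adgre1, which encodes F4/80, was close to the dim limit. Its probe set 1451161_a_at read 5.70 and 5.12 in Hi and 5.51 and 4.19 in Lo, with 1 Lo array under the limit. The groups overlapped, and the difference was 0.56 ± 0.53 (SE). Without Lo replicate 2 it was -0.10, without Lo replicate 1 it was 1.23, and without Hi replicate 1 it was 0.27, or 0.85 without Hi replicate 2. Among 12 measured macrophage and monocyte markers Timd4 alone was dim on all 4 arrays. Of the 12, 4 were higher and 2 lower in Hi without overlap of the groups, where 30.0% of all genes were higher and 25.4% lower. The summed intensity of the 12 markers was 9271 to 10451 in Hi and 10290 to 10527 in Lo. The brightest, Lyz2, read 12.8 to 13.1 in log2 and weighs most in this sum, which therefore says little about the others. Among those, Cx3cr1 was higher in Hi without overlap, at 1.52 ± 0.23, and Spic lower, at -1.81 ± 0.30.

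The latrophilins Adgrl1 and Adgrl2, receptors for teneurins and FLRT proteins, lay on opposite sides of 0. Adgrl2 read 10.82 and 10.65 in Hi and 11.10 and 11.06 in Lo in probe set 1434112_at. Probe set 1434111_at read 10.19 and 9.97 in Hi and 10.46 and 10.45 in Lo. The groups were apart in both, with differences of -0.34 ± 0.14 and -0.38 ± 0.15 (SE), or 1.27-fold and 1.30-fold higher in Lo. With the arrays shifted to equal medians these were -0.25 and -0.28. The remaining probe set, 1444906_at, was under the dim limit on 3 arrays and differed by -0.75 ± 0.36, or by -0.39 to -1.12 on leaving out single arrays.

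The probe sets of Adgrl1 were less alike. Probe set 1452812_at read 6.22 and 6.13 in Hi and 5.35 and 5.24 in Lo. The replicates lay close together and the groups well apart, with a difference of 0.88 ± 0.14 (SE), 1.84-fold higher in Hi. The brighter probe set, 1428510_at, read 8.98 and 9.35 in Hi and 9.12 and 7.99 in Lo. There the groups overlapped, and the difference of 0.61 ± 0.44 was 0.04 without Lo replicate 2, 0.42 without Hi replicate 2 and 1.17 without Lo replicate 1.

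Adgrl4, known as ELTD1 and typical of endothelial cells, was bright in both groups. Probe set 1418058_at read 12.77 and 12.80 in Hi and 12.99 and 13.08 in Lo, and probe set 1418059_at 11.62 and 11.77 in Hi and 11.75 and 11.88 in Lo. The groups were apart in the former, at -0.25 ± 0.13 (SE) or 1.19-fold higher in Lo, and overlapped in the latter, at -0.13 ± 0.15, with -0.20 to -0.05 on leaving out single arrays. After the arrays were shifted to equal medians these were -0.15 and -0.03. The endothelial genes Cdh5 and Sox17 did not exceed the dim limit on any of the 4 arrays. The summed intensity of the 10 endothelial markers was 2112 to 2133 in Hi and 3432 to 3630 in Lo, but their median difference was -0.02. Without overlap 3 were higher and 4 lower in Hi, where 30.0% of all genes were higher and 25.4% lower. Emcn and Tie1, which stem cells express too, stood at -1.03 ± 0.16 and -1.33 ± 0.17, while Plvap stood at 1.33 ± 0.17 and Flt1 was also higher without overlap. The part of endothelial cells in the Adgrl4 difference was not tested.

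Ordered from the lowest fitted difference, the receptors ran Adgrg2, Adgrg6, Adgre5, Adgrl2, Adgrg1, Adgrl4, Adgre1, Adgrl1 and Adgrg3. The order of Adgrg2 and Adgrg6 is not settled, since both were at or under the dim limit on at least 1 Hi array and the means of their probe sets were -1.38 and -1.37. Adgrl2, Adgrg1 and Adgrl4 lay within 1 SE of each other, and so did Adgre1, Adgrl1 and Adgrg3. Among the 6 receptors whose representative probe set was above the dim limit on all arrays, the differences ran from -0.57 for Adgre5 to 0.81 for Adgrg3.

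Of the 10 genes 5 lie on chromosome 8, where Adgrg5, Adgrg1 and Adgrg3 follow each other with no other protein-coding gene between them in RefSeq GRCm38.p6. Adgrl2 and Adgrl4 lie on chromosome 3. The nearest genes before Adgrg5 were Ccdc102a, at -0.92 ± 0.24 (SE), and Dok4, at -0.35 ± 0.28. Beyond Adgrg3, Cngb1 stood at -0.02 ± 0.24. Polr2c and Coq9, farther upstream, stood at 0.16 ± 0.13 and -0.06 ± 0.15, and Kifc3 was under the dim limit on all arrays.

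**Figure D3:**
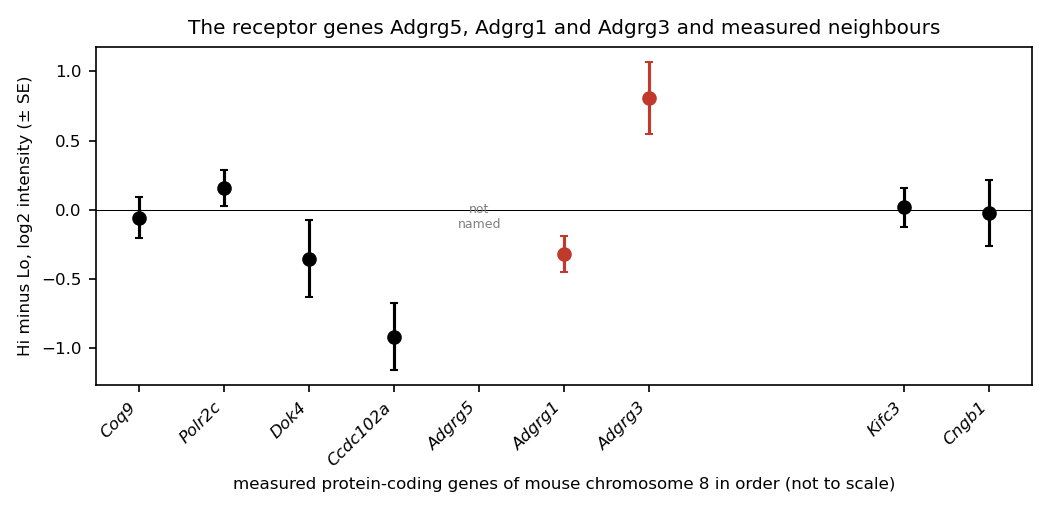
Hi minus Lo difference in log2 intensity, with its standard error, of measured protein-coding genes around Adgrg5, Adgrg1 and Adgrg3 in their order on chromosome 8 (receptors in red, distances not to scale). Adgrg1 at -0.32 and its neighbour Adgrg3 at 0.81 lie on opposite sides of 0.

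Over the whole table limma with Benjamini-Hochberg adjustment called 0 of 45037 probe sets higher and 0 lower at 0.05 (0.0% each). At an unadjusted p under 0.05, 9.05% were higher and 8.91% lower, and with 1 probe set per gene 9.25% of genes were higher and 11.0% lower. One measure of RNA quality separated the groups and another did not. For Gapdh the control probe set at the 3′ end was brighter than that at the 5′ end by 0.63 and 0.66 in Hi and by 0.74 and 0.78 in Lo, on the log2 scale. For Actb the same quantity overlapped, at 0.60 and 0.55 in Hi and 0.84 and 0.57 in Lo. The part of RNA quality in the receptor differences was not tested. Of the 5 sorting and progenitor genes listed, 4 had a probe set, and Ly6a (Sca1) had none assigned to it alone. Over the 4 arrays Kit read 11.39 to 11.95 and Flt3 12.30 to 12.70, with overlap of the groups. Ptprc was lower in Hi without overlap, at -0.58 ± 0.15 (SE). Cd34, which read 12.78 to 12.92, was higher without overlap, at 0.11 ± 0.13. Of 12 measured T and NK cell markers 2 were higher and 6 lower in Hi without overlap, with a summed intensity of 8658 to 9265 in Hi and 6630 to 7395 in Lo; the brightest, Nkg7, read 12.19 to 12.94. Of 6 B cell markers 2 were higher and 2 lower without overlap. Of 6 erythroid markers 4 were higher and 0 lower without overlap, with a median difference of 1.60 and a summed intensity of 3686 to 4326 in Hi and 1284 to 1362 in Lo; Alas2 was dim on all 4 arrays. The 6 measured long-term stem cell surface genes had a summed intensity of 2654 to 3122 in Hi and 8237 to 8956 in Lo. Of these 6, 5 were lower in Hi without overlap. Beside these marker counts, 30.0% of all genes were higher and 25.4% lower in Hi without overlap. The part of T, NK, B, erythroid and stem cells in the receptor differences was not tested.

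Of the other adhesion receptors listed, 16 of 20 had a probe set, and 9 were above the dim limit on at least 1 array. At an unadjusted p under 0.05, 2 were higher and 2 lower in Hi, where 9.25% of all genes were higher and 11.0% lower. Past the adjusted threshold were 0, and the median difference of the list was 0.01. The planar polarity cadherin Celsr2 read 8.32 and 8.84 in Hi and 7.52 and 7.53 in Lo, a difference of 1.05 ± 0.23 (SE; limma adjusted p = 0.149), and 0.66 with the mean of its probe sets. Its relative Celsr3 stood at 1.99 ± 0.62 (limma adjusted p = 0.232), or 1.14 without Lo replicate 2. On that array Celsr3 read 3.21, under the dim limit, so the size of its difference rests in part on a signal near blank. Adgrd1 read 6.48 and 6.18 in Hi and 7.50 and 7.12 in Lo, at -0.98 ± 0.22 (limma adjusted p = 0.154).

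Among ligands and surface partners of adhesion receptors, 25 of 26 genes had a probe set and 15 were above the dim limit on at least 1 array. At an unadjusted p under 0.05, 7 were lower and 0 higher in Hi, where 11.0% of all genes were lower and 9.25% higher. Past the adjusted threshold were 0, and the median difference of the list was -0.09. Tgm2, a transglutaminase that binds the Adgrg1 protein, read 9.53 and 9.62 in Hi and 11.86 and 11.88 in Lo. The difference was -2.29 ± 0.13 (SE; limma adjusted p = 0.0839), 4.90-fold higher in Lo. Collagen III is another known ligand of that receptor. The transcript of its gene, Col3a1, was under the dim limit on all arrays, and the protein was not measured. Cd9 and Cd81, genes of tetraspanin partners of Adgrg1, stood at 0.71 ± 0.63 and 0.06 ± 0.14. The difference of Cd9 was -0.15 without Lo replicate 2.

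Partners of Adgrg6 and of the latrophilins lay on both sides of 0. Col4a2, a collagen IV chain of the kind that binds Adgrg6, stood at -1.56 ± 0.20 (SE; limma adjusted p = 0.0962). The prion protein gene Prnp, another Adgrg6 ligand, stood at -1.46 ± 0.31 (limma adjusted p = 0.149), or -0.90 when its probe sets were averaged. The teneurin gene Tenm4 read 5.16 and 4.78 in Hi, the latter under the dim limit, and 7.46 and 7.36 in Lo. Its difference was -2.43 ± 0.19 (limma adjusted p = 0.0839), or -1.27 when all its probe sets were averaged. The other teneurin genes, Tenm1, Tenm2 and Tenm3, were under the dim limit on all arrays, and the neurexin gene Nrxn2 stood at 0.44 ± 0.18. The laminin gene Lama2, whose product belongs to a ligand of Adgrg6, stood at 0.11 ± 0.15. Of the Adgre5 partners, Thy1 stood at -1.08 ± 0.25 (limma adjusted p = 0.164) and Cd55 at -0.32 ± 0.16 (limma adjusted p = 0.392), or -0.76 with its 3 probe sets averaged. The integrin gene Itgb1, also in the list, was higher in Hi without overlap, at 0.87 ± 0.51, or 0.18 without Lo replicate 2. For the integrin genes Itga5 and Itgav the groups overlapped, at -0.18 ± 0.24 and -0.09 ± 0.23.

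Among G proteins and their effectors, 36 of 39 genes had a probe set and all 36 were above the dim limit on at least 1 array. At an unadjusted p under 0.05, 8 were lower and 1 higher in Hi, where 11.0% of all genes were lower and 9.25% higher. Past the adjusted threshold were 0, and the median difference of the list was -0.18. Gna13, the G protein alpha subunit through which Adgrg1 activates RhoA, stood at 0.10 ± 0.19 (SE). Gnai1, an inhibitory alpha subunit, read 3.24 and 4.20 in Hi, under the dim limit, and 7.12 and 7.85 in Lo, at least 6.12-fold higher in Lo (limma adjusted p = 0.0949). The mean of the Gnai1 probe sets differed by -2.04. Another alpha subunit gene, Gnao1, was higher in Hi without overlap, at 1.41 ± 0.31 (limma adjusted p = 0.157), or 0.56 with the mean of its probe sets. Its Lo arrays were under the dim limit, which allows a bound of at least 2.06-fold. The gamma subunit gene Gng11 stood at -1.20 ± 0.14 (limma adjusted p = 0.0949) and the adenylate cyclase gene Adcy9 at -1.13 ± 0.16 (limma adjusted p = 0.101).

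Of 13 stem cell transcription factor genes 12 had a probe set. At an unadjusted p under 0.05, 7 were lower and 0 higher in Hi, where 11.0% of all genes were lower and 9.25% higher. Past the adjusted threshold were 0, and the median difference of the list was -0.58. Mecom, known to raise Adgrg1 expression in blood cells, read 11.38 and 11.42 in Hi and 12.53 and 12.19 in Lo. Its difference was -0.96 ± 0.18 (SE; limma adjusted p = 0.129), or -0.26 with the mean of its probe sets. Gata2 stood at -0.47 ± 0.14 (limma adjusted p = 0.215), Hlf at -1.15 ± 0.14 (limma adjusted p = 0.0949) and Prdm16 at -1.14 ± 0.19 (limma adjusted p = 0.114).

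**Figure D4:**
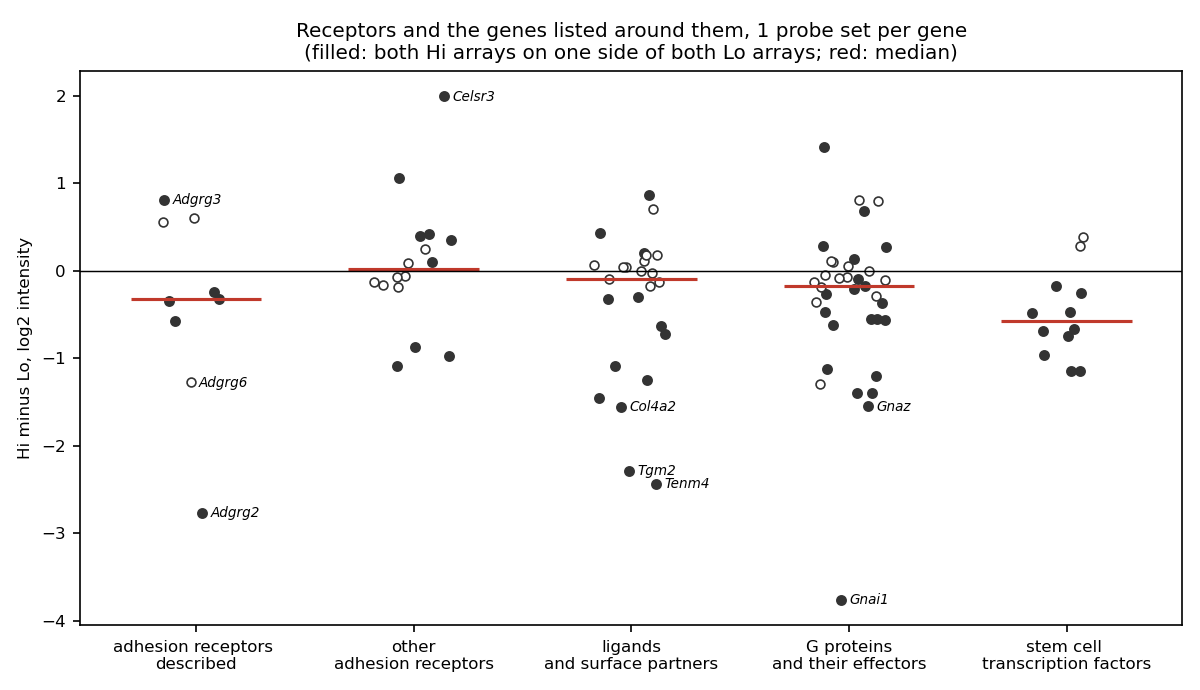
Hi minus Lo difference in log2 intensity of the 9 receptors and of 4 lists around them, a point per gene; filled points mark genes whose groups did not overlap, and red bars are medians. The medians run from -0.58 for the stem cell transcription factors to 0.01 for the other adhesion receptors.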

How the data were processed

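Per the labels' protocols, transcripts of 4 sorted LSK samples were measured on Affymetrix arrays. The authors deposited 1 linear intensity per probe set and array, per the submitters' processing notes by RMA, whose version and background step are not given in the sources used here. RMA gives arrays like distributions, so it hides any change in total RNA of a cell. The values (maximum 22122) were log2-transformed with no offset. Of 45101 probe sets 64 controls were left out. The platform annotation gave 34945 a single symbol, 932 several and 9160 none; 34741 symbols matched RefSeq GRCm38.p6 by Entrez identifier and 0 changed.

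The 4 arrays were fitted in limma 3.58.1 (R 4.3.3; lmFit and eBayes, a two-sided test of Hi minus Lo, no block) and adjusted by Benjamini-Hochberg over 45037 probe sets. The fit had 2 residual and 1.976 prior degrees of freedom. SE is the moderated standard error, and folds are fitted differences turned into ratios. With 2 arrays per group, the number of arrays limits precision. The steps were tested on simulated data.

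The receptors, lists and tests were chosen with earlier results of these data known. Named were all receptors, the 3 genes of each list with the smallest p whose groups did not overlap, and 10 known partners or regulators of the receptors. Chromosomal neighbours were chosen after the values were seen, as were the marker genes named, Nrxn2, Lama2, the integrins, Gnao1 and the other teneurins. Genes were represented by their brightest probe set.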

Additional observations from a re-analysis of the deposited data

How the results depend on the processing

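The 9 receptor differences kept their direction under equal array medians, cyclic loess and the offset of 16. They also did so on leaving out single arrays, except Adgre1, which was -0.10 without Lo replicate 2. The 6 receptors with over 1 probe set kept it under the mean of all probe sets, which includes the brightest. For Adgrg2 the brightest alone set the direction, since the other differed by 0.01 and was under the dim limit on all arrays. The dim filter only drops probe sets and the replicate block is balanced over the groups, so neither can change a difference. The median of the 9 differences ran from -0.35 to -0.26 on leaving out single arrays. With equal array medians it was -0.22, and with cyclic loess -0.36. The number of receptor probe sets above Lo without overlap, 2 with all arrays, was 3 to 4 on leaving out single arrays, where fewer arrays make overlap rarer, and the number below, 9, was 10. With the dim filter 2 lay above and 7 below, with equal array medians 3 and 8, and with cyclic loess 2 and 10.

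Over all 18193 genes the adjusted calls were 252 higher and 276 lower when each gene was given the mean of its probe sets. They were 190 and 214 of the same genes with 1 probe set per gene in a fit chosen after seeing the data. In the ordinary test they were 0 and 1 of 45037 probe sets. The 4 lists, in the order given above, held 16, 25, 36 and 12 measured genes. Of these genes, the 3 fits called 7, 5 and 0 lower and 0 higher. Called with the mean were Tgm2, Col4a1, Col4a2, Gnai1, Gng11, Arhgef12 and Hlf. With 1 probe set per gene they were Tgm2, Tenm4, Gnai1, Gng11 and Hlf.

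Same-numbered arrays share only a number in the labels, and their deviations correlated at 0.07. With the replicate block 0 probe sets were called higher and 0 lower, but the block takes up residual degrees of freedom, of which the main fit had 2. The median receptor difference stayed at -0.32, which a block balanced over the groups cannot change. Signals near blank limit Adgrg2, Adgrg6 and Adgre1, and 34.9% of probe sets never exceeded the dim limit.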
